A study of Mus musculus with 4 samples.

Results

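The nuclear-encoded subunits of the mitochondrial respiratory chain and of ATP synthase were examined in the gastrocnemius, a largely fast-fibred muscle of the calf, of mice with extra PPARbeta, a lipid-sensing nuclear receptor encoded by Ppard. Members were chosen by gene symbol in the platform annotation, by the prefixes Ndufa, Ndufb, Ndufc, Ndufs, Ndufv, Uqcr, Cox4 to Cox8 and Atp5, the symbols Sdha to Sdhd, Cyc1 and Cycs, with the Ndufaf assembly factors left out. This gave 81 genes of 12393 named genes, and each was read from its probe set of highest mean signal. The samples were 2 Affymetrix arrays of MCK-PPARb transgenic mice and 2 of non-transgenic littermates, labelled wild-type, with all mice aged 6 weeks. MCK is the usual short name of muscle creatine kinase, whose promoter drives transgenes in striated muscle. The labels describe neither the construct nor the founder line. The titles number them as biological replicates, and it is not stated how the replicates relate to the 2 mice per genotype that the design text names, so p-values measure only the spread between these arrays, which may be technical.

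The respiratory chain passes electrons from NADH (complex I) and succinate (complex II) through ubiquinone to complex III, cytochrome c and complex IV, and ATP synthase (complex V) uses the resulting proton gradient to make ATP. Slow and oxidative muscle fibres carry more of these complexes than fast glycolytic ones. Several subunits of complex IV exist in a form typical of heart and skeletal muscle and a form found in most tissues.

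Ppard read 126049 and 98797 signal units in MCK-PPARb muscle, against 2169 and 2825 in non-transgenic muscle, so the overexpressed gene matched the labels. Signals were the linear MAS5-type intensities as deposited, tested on the log2 scale with limma, and a gene was tested when its mean log2 signal lay above the median of all probe sets, at 444 units. The brightest end of the scale differed between arrays: the 10 brightest probe sets held 2.78% and 2.44% of all signal on the MCK-PPARb arrays, against 4.20% and 2.36% on non-transgenic arrays 1 and 2. The 8 skeletal muscle markers were far above the filter on every array, and the summed signal of those markers was 1075580 and 950773 in MCK-PPARb muscle, against 1671210 and 926595 in non-transgenic muscle. The 5 heart markers had means below the filter. Myh6 read 468 and 1103 in MCK-PPARb muscle, against 124 and 251 in non-transgenic muscle. Tnni3 read 287 and 1350 in MCK-PPARb muscle, against 242 and 175 in non-transgenic muscle. These did not overlap between the groups, whereas Myl7, Nppa and Nppb did. The summed signal of the 5 was 1555 and 2838 in MCK-PPARb muscle, against 769 and 938 in non-transgenic muscle, without overlap. The part of heart markers in the subunit signals was not tested. Because whole muscle was measured, fewer cells of a type and less RNA per cell cannot be told apart.

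No subunit gene passed the test. Of the 81 members, 79 were tested, and 0 were called at an adjusted p under 0.05 (limma, Benjamini-Hochberg over all 11313 kept probe sets), while 0.731% of the 6841 genes tested were called. At an unadjusted p under 0.05 in limma there were 5 members, or 6.33%, and 10.9% of all genes. The smallest adjusted p among members was 0.119, for Uqcrh. Leaving out the intensity trend raised it to 0.324, whereas it was 0.064 with quantile normalization and 0.074 with the filter at the 75th percentile. The differences ran from -0.91 to 0.42 on the log2 scale, MCK-PPARb minus non-transgenic. Their median was -0.059, against 0.011 over all genes. The members were bright, with a median signal of 33337 and 34747 in MCK-PPARb muscle, against 38152 and 34432 in non-transgenic muscle. Over all genes tested it was 1617 and 1644, against 1607 and 1595. The median SE of a difference was 0.20 in members and 0.27 over all genes. The part of brightness in the shares that follow was not tested. A difference of more than 0.5 in either direction was seen in 4 members, or 5.06%, and in 19.5% of all genes, and one of more than 1 in 0 members and 3.48% of all genes. For 74 of the 79 members the 95% interval of the difference lay within 1 on either side of 0, or within a 2-fold change. The same held for 4221 of the 6841 genes tested. The other 5 members were Ndufa5, Ndufa12, Uqcrh, Uqcrb and Atp5md.

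**Figure D1:**
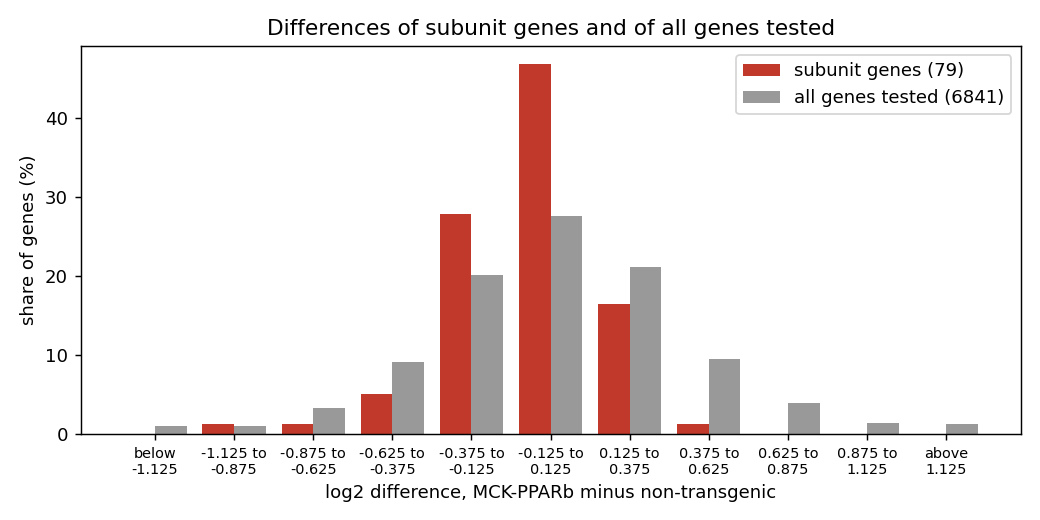
Share of genes (vertical axis, percent) by log2 difference between MCK-PPARb and non-transgenic muscle (horizontal axis), for 79 subunit genes (red) and all 6841 genes tested (grey). The middle interval, -0.125 to 0.125, holds 46.8% of the subunit genes and 27.7% of all genes. The median SE of a difference was 0.20 for the subunit genes and 0.27 for all genes.

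In the members the median gap between the arrays of a group was larger than the median contrast between groups. The absolute difference between groups was smaller than the gap between the 2 arrays of at least 1 group for 66 members, and larger than both gaps for 13. The same count was not made over all genes tested, so it cannot be called high or low for the members. That contrast is between means of 2 arrays, whereas a gap is between single arrays. Its median was 0.13 on the log2 scale in the members. The gap between arrays had a median of 0.17 within the MCK-PPARb group and 0.23 within the non-transgenic group. Over all genes tested these medians were 0.240 for the contrast, and 0.235 and 0.283 for the gaps. The median contrast thus lay below both median gaps in the members and between them over all genes. The members took 5.41% and 5.86% of all signal on the MCK-PPARb arrays and 5.80% on each non-transgenic array, so the groups overlap in their total. Differences were negative for 53 members and positive for 26, which is 67.1% negative, against 48.8% of all genes. That split was 58.2% negative with quantile normalization, 78.5% with median centring of the arrays and 45.6% without MCK-PPARb replicate 1. Median centring itself moved the median of all genes by -0.11, and the members' median stayed 0.069 below that of all genes, against 0.012 below with quantile normalization. Both MCK-PPARb arrays lay below both non-transgenic arrays for 19 members, or 24.1%, with 20.8% among all genes, and above them for 6 members, or 7.59%, with 22.2% among all genes.

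**Figure D2:**
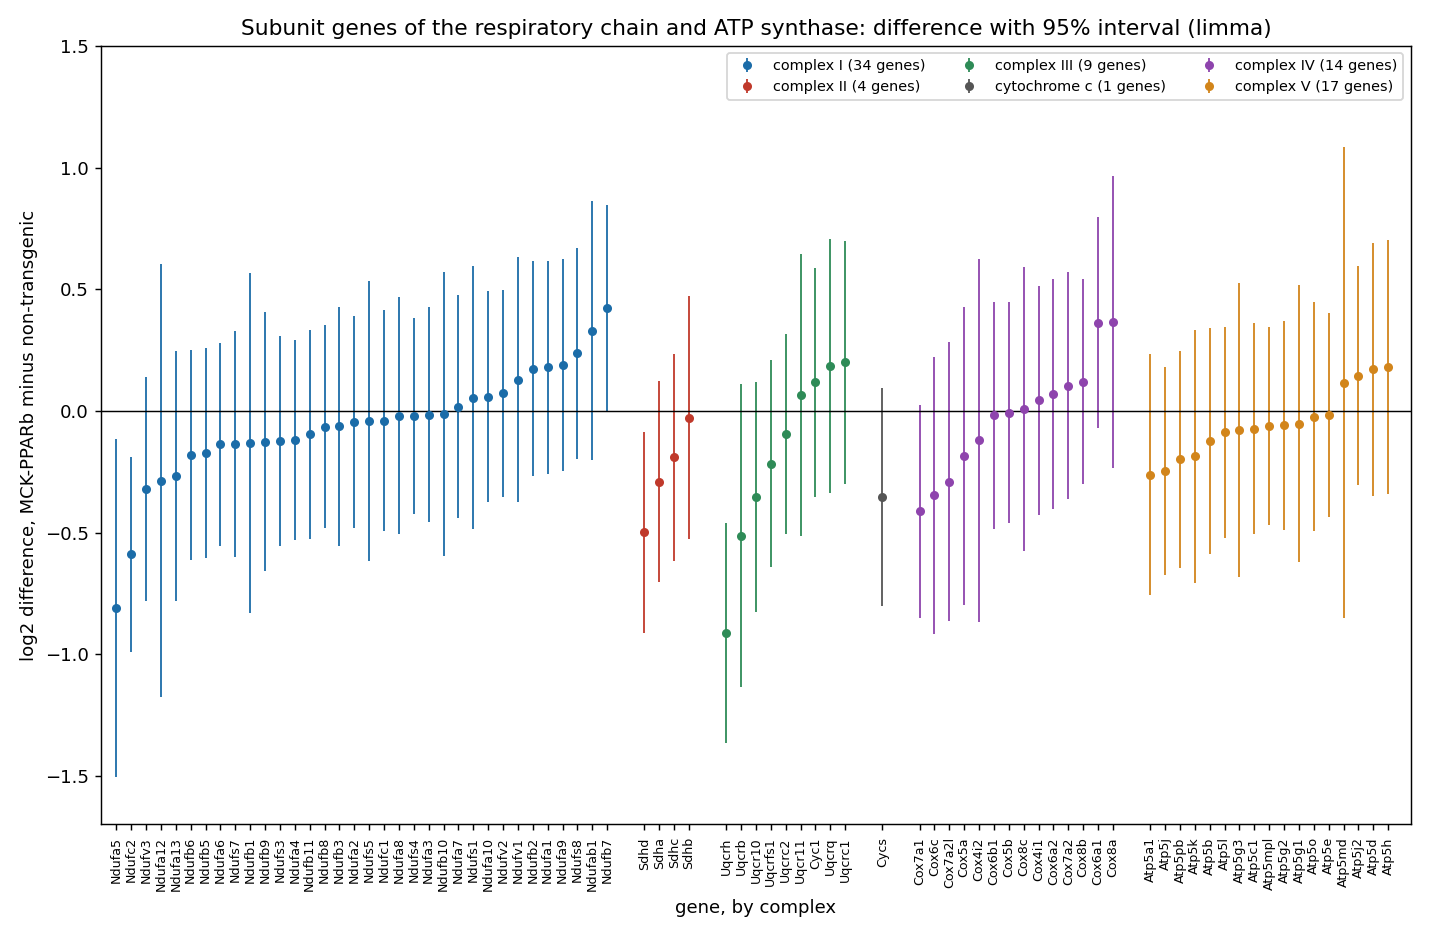
Log2 difference between MCK-PPARb and non-transgenic muscle (points) with its 95% interval from limma (lines, 2 arrays per group) for each of the 79 tested subunit genes, ordered within its complex. Nearly all intervals cross 0; Uqcrh, Ndufc2, Ndufa5 and Sdhd lie wholly below it and Ndufb7 just above it, with none called after adjustment.

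Complex I, NADH dehydrogenase, had 34 members, all tested, with a median difference of -0.044. The 6 core subunits, most of which carry the flavin or iron-sulphur clusters, ran from -0.14 for Ndufs7 to 0.24 for Ndufs8, with a median of 0.063. The 28 accessory subunits, which surround the core and serve assembly and stability, ran from -0.81 to 0.42, with a median of -0.055.

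Ndufc2, an accessory subunit of the membrane arm, read 14016 and 14306 in MCK-PPARb muscle, against 20890 and 21750 in non-transgenic muscle. The groups were far apart and the arrays of each close together. Its difference was -0.59 ± 0.17 (SE, n = 2 per group, limma adjusted p = 0.258), a level 1.51-fold lower. Its other kept probe set read 13980 and 15019 in MCK-PPARb muscle, against 11943 and 29088 in non-transgenic muscle, with overlapping groups (-0.36 ± 0.38). Ndufa5, an accessory subunit of the peripheral arm, read 5281 and 6765 in MCK-PPARb muscle, against 7804 and 14075 in non-transgenic muscle. The non-transgenic arrays differed more from each other than the groups did. Its difference was -0.81 ± 0.30 (limma adjusted p = 0.381), with -0.22 in its other kept probe set. Without non-transgenic replicate 1 it was -1.24 with an adjusted p of 0.0393, a fit in which the lone control array is assumed to vary like the MCK-PPARb pair, and without non-transgenic replicate 2 it was -0.38, so its size differed with the control array used.

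Ndufb7, an accessory subunit on the intermembrane-space side, read 33849 and 33682 in MCK-PPARb muscle, against 23321 and 27169 in non-transgenic muscle. It was the highest positive difference of the family, at 0.42 ± 0.18 (limma adjusted p = 0.470), and its other probe set gave 0.32. Ndufv3, a small accessory subunit of the NADH-binding module, read 29313 and 34665 in MCK-PPARb muscle, against 43650 and 36311 in non-transgenic muscle, a difference of -0.32 ± 0.20 (limma adjusted p = 0.623). Ndufs8, a core iron-sulphur subunit, had 6 kept probe sets, of which 5 ran from 0.24 to 0.45 and 1 stood at -0.39. Ndufab1, the acyl carrier protein that complex I shares with fatty acid synthesis in mitochondria, was at 0.33 ± 0.23 with overlapping groups. Ndufa4, named for complex I but since placed with complex IV, was at -0.12 ± 0.18.

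Complex II, succinate dehydrogenase, is also an enzyme of the citric acid cycle and is encoded wholly in the nucleus. All 4 of its subunit genes had negative differences, with a median of -0.24, and in 3 of them both MCK-PPARb arrays lay below both non-transgenic arrays. Over all genes tested, 48.8% had a negative difference and 20.8% lay lower without overlap. Sdhd, a membrane anchor, read 17559 and 18391 in MCK-PPARb muscle, against 24002 and 26893 in non-transgenic muscle, a difference of -0.50 ± 0.18 (limma adjusted p = 0.354). Its other kept probe set, far dimmer and with overlapping groups, gave -0.55 ± 0.41. Sdha, the flavoprotein that oxidizes succinate, read 29285 and 28375 in MCK-PPARb muscle, against 33553 and 37091 in non-transgenic muscle (-0.29 ± 0.18, limma adjusted p = 0.618), and -0.33 in its other probe set. For Sdhc, the second anchor, signals were 28144 and 27406 in MCK-PPARb muscle, against 34256 and 29349 in non-transgenic muscle (-0.19 ± 0.18). Sdhb, the iron-sulphur subunit, read 43261 and 59496 in MCK-PPARb muscle, against 52151 and 51313 in non-transgenic muscle (-0.028 ± 0.21), with MCK-PPARb arrays on both sides of the non-transgenic ones. The median of the 4 genes stayed negative under the alternatives run, from -0.35 to -0.22.

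**Figure D3:**
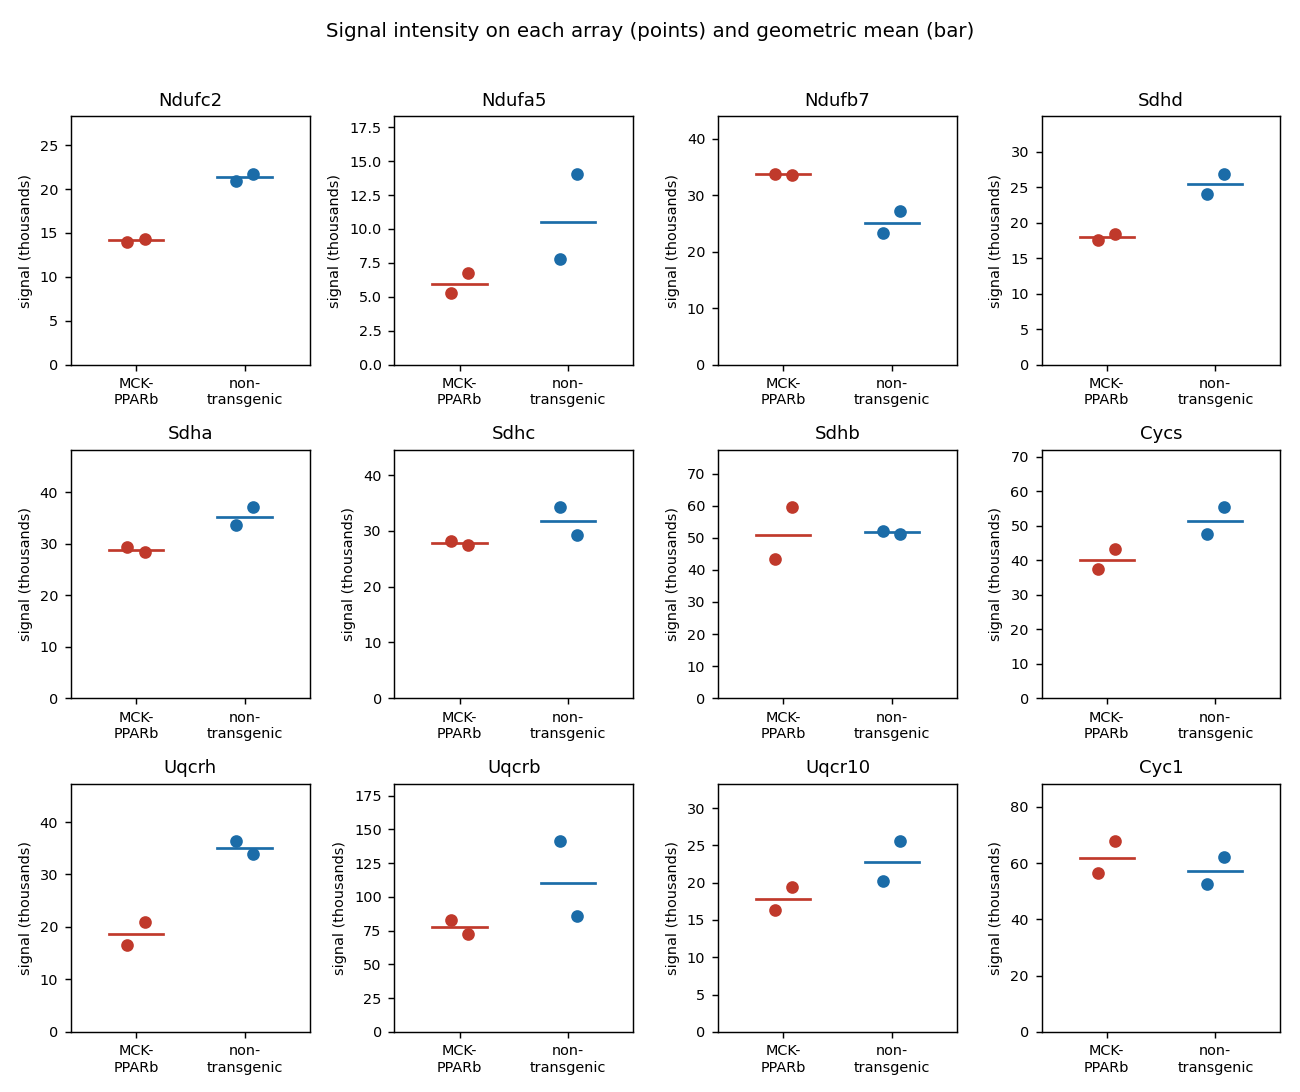
Signal intensity (vertical axes, starting at 0) on each array (points) with the geometric mean of the group (bars), MCK-PPARb left in red and non-transgenic right in blue, for 12 genes of complexes I to III and cytochrome c. Uqcrh, Ndufc2, Sdhd, Sdha, Cycs and Uqcr10, lower in MCK-PPARb muscle, and Ndufb7, higher, separate the groups by more than the gap within each group. For Sdhb and Cyc1 the groups overlap.

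Complex III, the cytochrome bc1 complex, had 9 members, all tested. The 4 core and redox subunits ran from -0.22 to 0.20. Among them Cyc1, cytochrome c1, read 56549 and 67953 in MCK-PPARb muscle, against 52546 and 62107 in non-transgenic muscle (0.12 ± 0.20), and Uqcrfs1, the Rieske iron-sulphur protein, was at -0.22 ± 0.18 (limma adjusted p = 0.739). The core protein Uqcrc1 was at 0.20 ± 0.21 and Uqcrc2 at -0.094 ± 0.18, with 0.031 in the other probe set of Uqcrc2. The 5 small subunits ran from -0.91 to 0.18 with a median of -0.35, and 2 of them had positive differences; the roles were not tested against each other.

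Uqcrh, the acidic hinge protein next to cytochrome c1, had the lowest difference and the smallest p of all members. Its signals were 16601 and 20938 in MCK-PPARb muscle, against 36411 and 33830 in non-transgenic muscle. Every MCK-PPARb value lay below every non-transgenic value, and the gap exceeded the spread within both groups. The difference was -0.91 ± 0.19 (95% interval -1.37 to -0.46), a level 1.88-fold lower, and did not pass (limma adjusted p = 0.119). It has 1 probe set in the table. Uqcrb, known as the ubiquinone-binding protein, read 82542 and 72475 in MCK-PPARb muscle, against 141523 and 86085 in non-transgenic muscle (-0.51 ± 0.27, limma adjusted p = 0.562). Non-transgenic replicate 1, the array with the larger share in its brightest probe sets, was far above the others. The difference was -0.15 without it, and -0.87 without non-transgenic replicate 2 (adjusted p = 0.0494), again with a lone control array assumed to vary like the MCK-PPARb pair. A second probe set of Uqcrb gave -0.55 ± 0.18 (limma adjusted p = 0.331). Uqcr10, a small membrane subunit, was at -0.35 ± 0.20 (limma adjusted p = 0.597) in its brightest probe set and at -0.72 and -0.83 in both others. Uqcrq and Uqcr11 were at 0.18 and 0.066, with overlapping groups. The median of complex III over all 9 members was -0.094.

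Cycs, the somatic cytochrome c that shuttles electrons between complexes III and IV, read 37376 and 43165 in MCK-PPARb muscle, against 47645 and 55352 in non-transgenic muscle. The groups did not overlap, and the difference was -0.35 ± 0.19 (95% interval -0.80 to 0.094, limma adjusted p = 0.574). All 3 kept probe sets were negative, from -0.42 to -0.28.

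Complex IV, cytochrome c oxidase, had 16 members, of which 14 were tested, with a median difference of -7.5e-05. Differences were negative for 7 and positive for 7. Of the subunits without a muscle form, Cox4i1, the largest nuclear subunit, was at 0.044 ± 0.20, Cox5a at -0.19 ± 0.26, Cox5b at -0.0079 ± 0.19, Cox6b1 at -0.018 ± 0.20 and Cox6c at -0.35 ± 0.24 (limma adjusted p = 0.679). A dimmer probe set of Cox6c gave -0.57 ± 0.17 (limma adjusted p = 0.280), and the kept probe sets of Cox5a ran from -0.19 to 0.15, those of Cox5b from -0.0079 to 0.30 and those of Cox6b1 from -0.018 to 0.087. Cox7a2l, which joins complexes III and IV into supercomplexes, was at -0.29 in its brightest probe set and at 0.19 and 0.12 in the others.

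The heart and muscle forms of complex IV subunits were Cox6a2, Cox7a1 and Cox8b, and their widely expressed counterparts Cox6a1, Cox7a2 and Cox8a. Cox7a1 read 21898 and 25987 in MCK-PPARb muscle, against 30180 and 33444 in non-transgenic muscle, with no overlap (-0.41 ± 0.19, limma adjusted p = 0.499). Cox7a2 read 62667 and 68720 in MCK-PPARb muscle, against 54755 and 68160 in non-transgenic muscle (0.10 ± 0.20), with -0.15 in its other probe set. Cox6a2 read 82425 and 86864 in MCK-PPARb muscle, against 90261 and 71999 in non-transgenic muscle (0.070 ± 0.20), and Cox6a1 read 8564 and 8316 in MCK-PPARb muscle, against 6070 and 7106 in non-transgenic muscle (0.36 ± 0.19, limma adjusted p = 0.556). Cox8b read 54810 and 59137 in MCK-PPARb muscle, against 53511 and 51345 in non-transgenic muscle (0.12 ± 0.18), and Cox8a read 6837 and 7470 in MCK-PPARb muscle, against 7078 and 4353 in non-transgenic muscle (0.36 ± 0.26, limma adjusted p = 0.682). None of the 6 genes passed, and of the muscle forms Cox7a1 alone had a negative difference.

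The ratio of the muscle form to its counterpart was then taken on each array. A probe set's brightness depends on its probes, so the ratio is compared between arrays only, and a change in it shows unequal change of the 2 genes. Cox7a1 over Cox7a2 was 0.349 and 0.378 in MCK-PPARb muscle, against 0.551 and 0.491 in non-transgenic muscle. The groups did not overlap, and the log2 ratio differed by -0.52 (exact permutation test, two-sided p = 0.333, the smallest that 2 arrays against 2 allow). With the other probe set of Cox7a2 the ratios were 0.699 and 0.786 in MCK-PPARb muscle, against 0.926 and 0.859 in non-transgenic muscle, a difference of -0.27, also without overlap. Cox6a2 over Cox6a1 was 9.62 and 10.4 in MCK-PPARb muscle, against 14.9 and 10.1 in non-transgenic muscle (-0.29, exact permutation p = 0.667), and without non-transgenic replicate 1 the difference was -0.015. Cox8b over Cox8a was 8.02 and 7.92 in MCK-PPARb muscle, against 7.56 and 11.8 in non-transgenic muscle (-0.25, exact permutation p = 1), and turned to 0.076 without non-transgenic replicate 2. These 2 ratios overlapped between the groups, and the high control value was on a different array in each. In all, 5 such ratios were computed, and the smallest possible p cannot pass any adjustment.

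**Figure D4:**
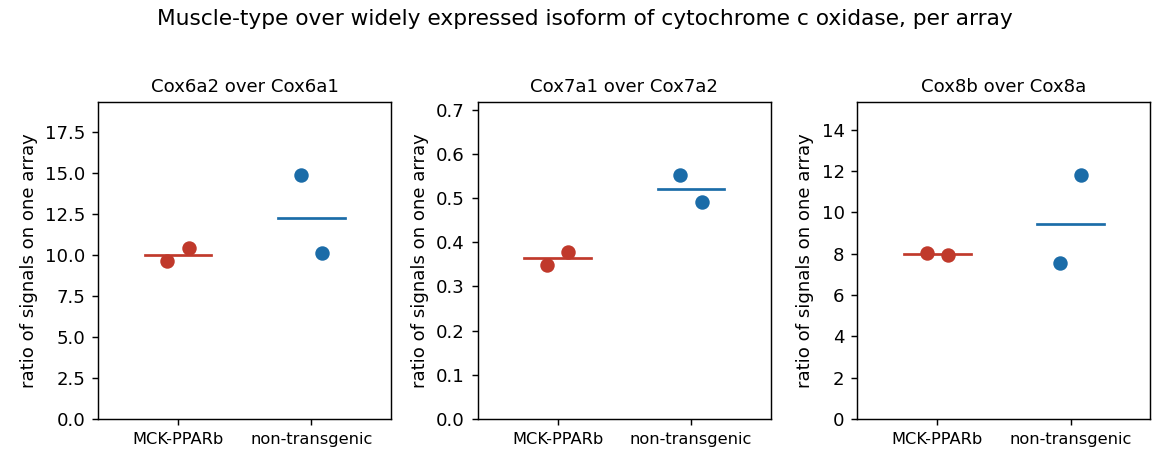
Ratio of the signal of the muscle-type isoform to that of its widely expressed counterpart on each array (points, vertical axes start at 0) with the geometric mean of the group (bars), MCK-PPARb left and non-transgenic right. The ratio of Cox7a1 to Cox7a2 is 0.349 and 0.378 in MCK-PPARb muscle and 0.551 and 0.491 in non-transgenic muscle; the other panels overlap.

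Forms typical of other tissues were also on the array. Cox4i2, the lung form of subunit 4, read 848 and 725 in MCK-PPARb muscle, against 1029 and 707 in non-transgenic muscle (-0.12 ± 0.32). Its ratio to Cox4i1 differed by -0.16 (exact permutation p = 0.667). Cox6b2, the testis form of subunit 6b, lay below the filter at 337 and 300 in MCK-PPARb muscle, against 315 and 181 in non-transgenic muscle, and its ratio to Cox6b1 differed by 0.43 (exact permutation p = 0.667). Cox8c, the testis form of subunit 8, read 1756 and 1496 in MCK-PPARb muscle, against 1811 and 1435 in non-transgenic muscle (0.0077 ± 0.25).

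The promoters of 5 isoform genes, and of Uqcrh as the member of smallest p, are shown because the isoforms of a subunit are told apart by where they are transcribed. Cox6a2 is named only. Sequences are the 250 bases before a listed gene start in RefSeq, build GRCm38.p6, 5′ to 3′ in the direction of the gene, and capitals mark matches to the motifs described next. The stretches lie at chr7:30183921-30184170 on the plus strand for Cox7a1, chr9:79759854-79760103 on the minus strand for Cox7a2, chr7:140900447-140900696 on the minus strand for Cox8b, chr19:7217617-7217866 on the minus strand for Cox8a, chr5:115348959-115349208 on the minus strand for Cox6a1 and chr4:116075071-116075320 on the minus strand for Uqcrh.
Cox7a1: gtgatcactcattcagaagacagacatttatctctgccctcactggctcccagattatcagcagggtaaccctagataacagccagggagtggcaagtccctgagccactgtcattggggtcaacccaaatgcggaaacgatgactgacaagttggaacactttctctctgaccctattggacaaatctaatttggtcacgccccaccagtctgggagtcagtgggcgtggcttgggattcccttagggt
Cox7a2: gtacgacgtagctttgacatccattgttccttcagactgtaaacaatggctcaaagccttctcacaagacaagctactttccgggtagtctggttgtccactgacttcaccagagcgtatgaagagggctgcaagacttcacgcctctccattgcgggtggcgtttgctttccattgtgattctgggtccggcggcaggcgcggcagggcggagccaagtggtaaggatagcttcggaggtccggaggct
Cox8b: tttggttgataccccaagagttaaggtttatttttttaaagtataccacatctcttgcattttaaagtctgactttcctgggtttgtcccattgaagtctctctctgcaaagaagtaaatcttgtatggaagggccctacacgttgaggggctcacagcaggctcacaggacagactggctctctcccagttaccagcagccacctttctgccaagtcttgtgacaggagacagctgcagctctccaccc
Cox8a: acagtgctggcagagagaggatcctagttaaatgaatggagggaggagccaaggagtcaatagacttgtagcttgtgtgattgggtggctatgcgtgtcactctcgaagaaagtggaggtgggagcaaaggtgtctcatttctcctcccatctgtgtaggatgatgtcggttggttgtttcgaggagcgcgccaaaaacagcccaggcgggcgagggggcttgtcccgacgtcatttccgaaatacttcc
Cox6a1: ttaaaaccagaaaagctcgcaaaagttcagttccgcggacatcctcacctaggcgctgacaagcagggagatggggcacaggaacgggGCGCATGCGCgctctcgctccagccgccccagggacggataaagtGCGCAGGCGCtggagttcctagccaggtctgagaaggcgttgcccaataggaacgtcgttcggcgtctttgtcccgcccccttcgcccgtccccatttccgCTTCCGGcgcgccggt
Uqcrh: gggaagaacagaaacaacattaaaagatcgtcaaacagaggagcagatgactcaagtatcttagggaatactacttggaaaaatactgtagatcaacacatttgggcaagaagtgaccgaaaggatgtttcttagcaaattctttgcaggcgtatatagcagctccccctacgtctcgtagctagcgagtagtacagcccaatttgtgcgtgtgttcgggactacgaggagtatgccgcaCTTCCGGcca

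Motifs were searched on both strands of a window of 300 bases, 250 before the start and 50 after it. The windows of 66 of the 81 members were in the promoter table, and the first listed start of a gene was used. The letters searched were GCGCA and GCGC with any 1 base between for nuclear respiratory factor 1 (NRF1), CCGGAAG for ETS factors such as GABPA, AAGATGGCG for YY1, TNAAGGTCA for estrogen-related receptors and the repeat of AGGTCA with any 1 base between, which PPARs bind with RXR. The NRF1 motif was held by 13 members, or 19.7%, and by 4.78% of the 27025 genes in the table. ETS letters were in 24.2% of members and 9.12% of all genes, YY1 letters in 7.58% and 1.49%, and the ERR letters in 3.03% and 1.26%. The PPAR repeat was found in 0 members and in 0.0444% of all genes. The estrogen-related receptor motif and the PPAR repeat share the letters AGGTCA. Median GC content was 58.8% in members and 52.7% in all genes. In the sequences shown, Cox6a1 holds NRF1 letters at 2 places, starting 162 and 117 bases before the gene start, and ETS letters 16 bases before it, and Uqcrh holds ETS letters 10 bases before its start. Cox7a1, Cox7a2 and Cox8b had none of these letters in the window, and Cox8a held ETS letters at 2 places, neither of them wholly within the stretch shown. A match is a description of the letters and no measure of binding.

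Complex V, ATP synthase, had 17 members, all tested, with differences from -0.26 to 0.18 and a median of -0.061. None had an unadjusted p under 0.05. The 5 genes of the catalytic F1 part ran from -0.26 to 0.17: Atp5a1, the alpha subunit, read 87184 and 90219 in MCK-PPARb muscle, against 121962 and 92793 in non-transgenic muscle (-0.26 ± 0.21, limma adjusted p = 0.727), with 0.012 and -0.28 in its other kept probe sets. Atp5b, the catalytic beta subunit, was at -0.13 ± 0.20. The c-ring, which turns as protons pass, is encoded by 3 genes for the same mature protein. Atp5g1 read 40983 and 45061 in MCK-PPARb muscle, against 55552 and 35726 in non-transgenic muscle (-0.052 ± 0.24), Atp5g2 22501 and 26931 in MCK-PPARb muscle, against 25692 and 25583 in non-transgenic muscle (-0.059 ± 0.18), and Atp5g3 94573 and 93501 in MCK-PPARb muscle, against 126128 and 78111 in non-transgenic muscle (-0.078 ± 0.26). The MCK-PPARb values of Atp5g1 and Atp5g3 lay between the non-transgenic ones, and those of Atp5g2 lay on both sides of them.

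The 9 stalk and membrane subunits ran from -0.25 to 0.18. Atp5j, the coupling factor 6 subunit, read 39618 and 42442 in MCK-PPARb muscle, against 45909 and 51587 in non-transgenic muscle (-0.25 ± 0.18, limma adjusted p = 0.697), and Atp5pb, subunit b of the peripheral stalk, 47443 and 51825 in MCK-PPARb muscle, against 61885 and 52337 in non-transgenic muscle (-0.20 ± 0.19). Atp5k, subunit e, which joins synthase dimers, was at -0.19 ± 0.22 in its brightest probe set but at 0.45 and 0.30 in the others. Atp5o, which encodes the oligomycin sensitivity protein, was at -0.024 ± 0.20, with 0.014 in its other probe set. Both Atp5md arrays of a group differed widely, at 10860 and 19731 in MCK-PPARb muscle, against 9023 and 20217 in non-transgenic muscle.

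Among the members, 41 had more than 1 kept probe set. In 28 of them all probe sets shared a sign, 11 positive and 17 negative, and in 13 they did not. Besides those named above, these were Ndufa7, with 5 probe sets from -0.17 to 0.33, Ndufb9 (-0.13 and 0.023) and Ndufc1 (-0.040 and 0.032). Over all 140 kept member probe sets, 0 were called, with 0.601% called over all 11313. At an unadjusted p under 0.05 there were 11 member probe sets, or 7.86%, against 10.6% of all.

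Genes that act with the chain were read from further lists. Among routes of electrons into the chain other than complexes I and II, 7 of 9 genes were tested, 1 rose and 1 fell. Etfdh, which hands electrons from fatty acid oxidation to ubiquinone, read 8608 and 8465 in MCK-PPARb muscle, against 3319 and 3894 in non-transgenic muscle (1.25 ± 0.19, limma adjusted p = 0.0431). Its call was lost without MCK-PPARb replicate 1 or 2 (adjusted p = 0.179 and 0.187), without the intensity trend (0.198) and with median centring (0.0608). Gpd2, the mitochondrial glycerol-3-phosphate dehydrogenase, read 1058 and 983 in MCK-PPARb muscle, against 4692 and 4801 in non-transgenic muscle (-2.22 ± 0.21, limma adjusted p = 0.00705). Suox, sulphite oxidase, whose electrons go to cytochrome c, was at -0.80 ± 0.29 and did not pass (limma adjusted p = 0.379). Etfa and Etfb, the flavoprotein that feeds Etfdh, were at 0.10 and 0.25.

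**Figure D5:**
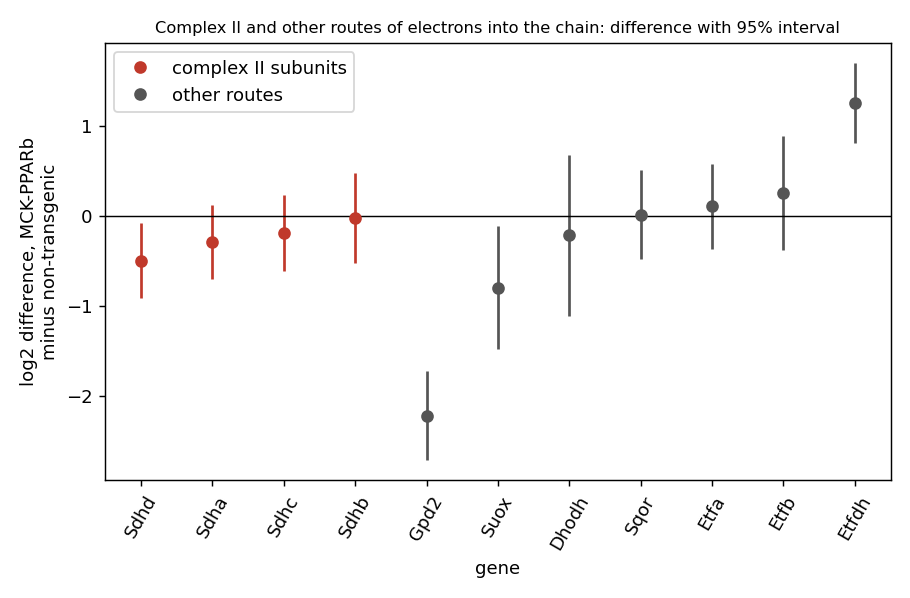
Log2 difference between MCK-PPARb and non-transgenic muscle (points) with its 95% interval from limma (lines, 2 arrays per group) for the 4 complex II subunits (red) and 7 tested genes of other routes into the chain (grey). Gpd2 at -2.22 and Etfdh at 1.25 lie outside the range of the complex II genes, -0.50 to -0.028, as do Suox, Etfb, Etfa and Sqor. Of the other routes only Dhodh, at -0.22, lies within it.

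None of the other lists held a called gene. Of 8 tested genes of ubiquinone synthesis, 0 passed; Coq8a, an atypical kinase-like protein of the pathway, read 22656 and 27219 in MCK-PPARb muscle, against 15123 and 17043 in non-transgenic muscle (0.63 ± 0.19, limma adjusted p = 0.278), and differences were -0.41 for Coq9 and 0.39 for Coq5. Assembly factors of complex I (10 tested, median -0.098) and of complexes II to V (27 tested, median -0.074) had 0 calls. Their members of smallest p were Ndufaf4 (-0.60), Ecsit (-0.44) and Ndufaf5 (-0.27) for complex I, and Cox16 (-0.60), Ttc19 (-0.47) and Cox19 (0.37) for the others. In the list of transcription and mitochondrial DNA regulators, 0 of 23 tested genes passed and the median was 0.23. There Ppargc1a, the coactivator of mitochondrial genes, read 2541 and 2224 in MCK-PPARb muscle, against 2495 and 2450 in non-transgenic muscle (-0.057 ± 0.21), and Tfam, the packaging and transcription factor of mitochondrial DNA, 2176 and 2280 in MCK-PPARb muscle, against 2124 and 2484 in non-transgenic muscle (-0.044 ± 0.22). The regulators of smallest p, none of which passed, were Hif1a (0.75), Ppara (0.98) and Polg (0.50). For ATP export and the inner membrane, 0 of 12 passed and the median was -0.27, with Slc25a4, the muscle ATP/ADP carrier, at -0.40 ± 0.23, Vdac2 at -0.35 and Vdac3 at -0.31. The 13 subunits encoded in mitochondrial DNA were not analysed here.

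Markers of other cell types were read beside these results. Among markers of brown fat, a tissue known for dense mitochondria, 1 of 5 was tested, and Ucp1 read 391 and 447 in MCK-PPARb muscle, against 59.1 and 28.9 in non-transgenic muscle, with a mean below the filter. The summed signal of the brown fat list was 3248 and 3120 in MCK-PPARb muscle, against 1591 and 1202 in non-transgenic muscle. Of 5 adipocyte markers 3 were tested. Adipoq read 2567 and 3076 in MCK-PPARb muscle, against 1151 and 1648 in non-transgenic muscle (1.03 ± 0.26, limma adjusted p = 0.194), and Retn 1565 and 1387 in MCK-PPARb muscle, against 805 and 652 in non-transgenic muscle (1.02 ± 0.27, limma adjusted p = 0.219). These did not overlap, whereas Fabp4, the brightest, did (-0.23 ± 0.25), as did the list's sum, 12482 and 12392 in MCK-PPARb muscle, against 9561 and 14305 in non-transgenic muscle. The summed Schwann cell markers were 29235 and 33356 in MCK-PPARb muscle, against 17348 and 19296 in non-transgenic muscle. The part of these 3 cell types in the subunit signals was not tested.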

How the data were processed

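Gastrocnemius RNA of MCK-PPARb and non-transgenic mice was measured on 2 arrays per group, each taken as 1 mouse. As deposited, each array has a linear signal intensity for every probe set. Per the submitters' processing notes the software was MAS5 and GCOS, of unstated version. The mean intensity after leaving out 2% at each end was 1501 on every deposited array, so the authors' values were already scaled and were used as deposited, on the log2 scale with no pseudocount. Precision is limited by having 4 arrays.

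Controls made up 64 of the 22690 probe sets and were dropped. Among the remaining 22626, a single gene symbol was given for 20380, several for 691 and none for 1555. Symbols were updated by gene number (assembly GRCm38.p6) for 20351, and probe sets with several symbols named nothing, among them 8 that match the member rule. The 11313 probe sets with a mean above 444 units were fitted with limma 3.58.1 in R 4.3.3 (lmFit, eBayes with an intensity trend, 7.38 degrees of freedom in all), with Benjamini-Hochberg adjustment over them, and called at an adjusted p under 0.05. Intervals are at 95% and cover the spread between these arrays. The fit was tested on simulated data. Isoform ratios had an exact permutation test over arrays.

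Named genes were the called members, the 4 of smallest p in complexes I, III, IV and V, all Sdh genes, Cyc1 and Cycs, tissue isoforms, members whose probe sets differ in sign, the called genes and 3 of smallest p in each further list, and Ppard. Other genes with values, and the roles within a complex, were chosen once values had been seen. Members and lists were chosen with earlier results of these data known. Settings varied one at a time were the normalization (quantile, or centring on the median), adding 100 before the log, the filter (none, or the 75th percentile), the trend, a replicate block, the arrays included, the threshold (0.1), dropping probe sets that end in _s_at or _x_at, and averaging the probe sets of a gene.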

Additional observations from a re-analysis of the deposited data

How the results depend on the processing

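Quantile normalization, median centring, a pseudocount of 100, dropping the trend, both other filters, an adjusted p under 0.1 and both other choices of probe sets left the number of called subunit genes at 0. Leaving out an array gave 0 to 1, with Ndufa5 called without non-transgenic replicate 1 and Uqcrb without non-transgenic replicate 2, both in fits where the lone control array is assumed to vary like the MCK-PPARb pair. The labels give both groups replicate numbers 1 and 2, but nothing ties same-numbered mice together. With a replicate block, 2 subunit genes were called, Uqcrh (adjusted p = 0.0256) and Ndufa5 (0.0465), and 377 probe sets in place of 68 over the whole table; deviations of same-numbered arrays from their group means correlated at 0.28 over 11313 probe sets. Of all probe sets, 116 were called with median centring, 150 at an adjusted p under 0.1 and 21 without the trend, and with an array left out 36 to 159.

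Median differences per complex moved by more than the spread between replicates in these cases. With median centring they were -0.15 for complex I, -0.35 for complex II and -0.20 for complex III. With a gene's probe sets averaged complex II was at -0.29 and complex III at -0.032, and without _s_at and _x_at probe sets complex III was at -0.16. With an array left out, complex I ran from -0.12 to 0.026, complex III from -0.15 to -0.064 and complex IV from -0.11 to 0.15. Cytochrome c and complex V moved by less than that under the alternatives run, though complex V was at 0.017 without MCK-PPARb replicate 1.

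Some single genes changed sign, none of them called. With quantile normalization these were Ndufb9 (0.096), Sdhb (0.0055), Cox6b1 (0.0012), Cox8c (-0.011) and Atp5g3 (0.16). With median centring they were Ndufa7 (-0.088), Cox4i1 (-0.062), Cox6a2 (-0.036), Cox7a2 (-0.0026) and Cox8c (-0.098). Without _s_at and _x_at probe sets they were Cox5b (0.24), Cox7a2l (0.19) and Atp5k (0.45), and with a gene's probe sets averaged Cox5b (0.17), Cox6b1 (0.034), Cox7a2 (-0.021), Cox7a2l (0.0039) and Atp5k (0.19). With an array left out the ranges that cross 0 were -0.37 to 0.27 for Atp5g1, -0.19 to 0.071 for Atp5g2, -0.42 to 0.27 for Atp5g3, -0.41 to 0.035 for Atp5k, -0.18 to 0.13 for Atp5o, -0.12 to 0.21 for Cox4i1, -0.39 to 0.15 for Cox4i2, -0.55 to 0.17 for Cox5a, -0.14 to 0.12 for Cox5b, -0.093 to 0.23 for Cox6a2, -0.19 to 0.15 for Cox6b1, -0.055 to 0.26 for Cox7a2, -0.62 to 0.040 for Cox7a2l, -0.16 to 0.18 for Cox8c, -0.015 to 0.25 for Cyc1, -0.16 to 0.19 for Ndufa7, -0.38 to 0.13 for Ndufb9, -0.19 to 0.11 for Ndufc1 and -0.26 to 0.20 for Sdhb. The ratio of Cox8b to Cox8a ran from -0.57 to 0.076. The log2 ratio of Cox7a1 to Cox7a2 ran from -0.60 to -0.39 under the alternatives run, and was -0.27 with the other Cox7a2 probe set. The cause of these shifts was not tested.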

Other observations

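Some probe sets of subunits that every respiring cell needs read low on all arrays. The brighter probe set of Cox7c, a subunit of complex IV with no tissue form among the members, read 395 and 185 in MCK-PPARb muscle, against 120 and 85.5 in non-transgenic muscle, below the filter. Ndufb1 of complex I read 816 and 723 in MCK-PPARb muscle, against 943 and 751 in non-transgenic muscle. Cox8c, known as a testis form, read above the filter on all 4 arrays. The widest gap between arrays of 1 group was that of Atp5md in the non-transgenic group, 1.16 on the log2 scale, and of Ndufa12 in the MCK-PPARb group, 0.98.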
